A study of Mus musculus with 6 samples.

Results

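The cytosolic ribosomal protein genes encode the proteins that are built onto ribosomal RNA to make the large (60S) and the small (40S) ribosomal subunit. They were taken here as protein-coding genes named Rpl or Rps with a number and at most 1 closing letter, together with Rplp0, Rplp1, Rplp2, Rpsa and Fau, and without the Rps6k kinases. The rule used symbols only and no measured value. It found 81 genes among the 55401 genes listed in each table, 49 of the 60S and 32 of the 40S subunit, and all 81 passed the filter of a mean of at least 0.5 TPM (the share of a library's transcripts that a gene takes, corrected for transcript length and scaled to a fixed total). Genes with other forms of symbol fall outside the rule, among them Rps3a1 and Rack1.

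RNA was measured in 46C cells, a mouse embryonic stem cell (mESC) line, in 3 groups of 2 libraries each. The Rbbp4 OE cells overexpressed biotin-tagged Rbbp4, and the Rbbp7 OE cells overexpressed biotin-tagged Rbbp7. The controls are titled as 46C controls and are taken here as the line that stably expressed the biotin tag alone. The sources do not say that the control libraries came from this tag-only line. Per the study's methods, the tag-only line and the biotin-tagged lines were made with lentivirus and puromycin selection from cells that carried a lentiviral biotin ligase. All were grown with serum, leukaemia inhibitory factor, Chir99021 and PD0325901. RBBP4 and RBBP7 are related histone-binding proteins shared by several chromatin complexes, and the study asked how far their roles differ. The sources do not say that the libraries of a group came from separate cultures, so the p-values measure the spread between these libraries, which may be technical.

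Ribosomal protein mRNAs are among the most abundant transcripts of growing cells, and the proteins are needed in equal numbers because nearly every one occurs once per ribosome. Their mRNAs typically start with a run of pyrimidines (the 5′ terminal oligopyrimidine, or TOP, motif), through which mTOR signalling sets how well they are translated. A few have a paralogue of restricted expression, such as Rpl3l of heart and skeletal muscle or Rpl10l and Rpl39l of male germ cells. The genes have also left many processed pseudogenes in the genome, which share most of their sequence.

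Overexpression was visible in the targeted genes. Rbbp4 was at 146 and 147 TPM in the controls, 270.0 and 271 TPM with Rbbp4 OE, and 144 and 143 TPM with Rbbp7 OE. With Rbbp4 OE it showed a change from control of 0.88 in log2 units (limma adjusted p = 0.00173, SE 0.0464). Rbbp7 was at 239 and 237 TPM in the controls and at 725 and 748 TPM in Rbbp7 OE, a change of 1.63 in log2 units (limma adjusted p = 2.27e-04, SE 0.0471). Rbbp7 was at 208 and 217 TPM in Rbbp4 OE. The 2 Rbbp4 OE libraries and the 2 Rbbp7 OE libraries each stood far above all other libraries for the gene they were labelled with.

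The files hold no read counts, so the depth of the libraries is unknown, and between 19011 and 19691 genes were above 0 in a library. All 8 embryonic stem cell markers checked, Pou5f1 and Nanog among them, were at 1 TPM or more in every library. Their summed level was 7879 to 8107 TPM in the controls, 8508 to 8799 TPM in Rbbp4 OE and 8510 to 8743 TPM in Rbbp7 OE. Of the markers of other cells, Gata4, Gata6, Sox17 and Pdgfra (primitive endoderm), Elf5 (trophoblast), Col1a1 and Postn (fibroblast) and Pax6 and Neurog2 (neural) were under 1 TPM in every library. Others were not low: 3 of the 5 trophoblast, 1 of the 5 fibroblast and 2 of the 4 neural markers were at 1 TPM or more in every library. The highest marker means of these 3 lists were 16.1, 7.15 and 100.6 TPM. No primitive endoderm marker reached 1 TPM in every library. The 5 trophoblast markers summed to 22.9 TPM in both controls, 24.7 to 30.7 TPM in Rbbp4 OE and 34.2 to 37.4 TPM in Rbbp7 OE, and the 5 fibroblast markers to 4.48 to 5.59, 9.09 to 11.3 and 8.75 to 15.5 TPM. The 5 primitive endoderm markers summed to between 0.60 and 3.11 TPM over all libraries, and the 4 neural markers to 98.0 to 99.99 TPM in the controls, 115 to 116 TPM in Rbbp4 OE and 90.6 to 92.2 TPM in Rbbp7 OE. Of 7 markers of 2-cell-like cells, which resemble the totipotent 2-cell embryo, 6 were under 1 TPM throughout, and the 7 summed to 1.66 to 2.46 TPM in the controls, 0.39 to 0.75 TPM in Rbbp4 OE and 0.76 to 0.78 TPM in Rbbp7 OE. These marker levels moved between the groups, and their part in the results on ribosomal protein genes was not tested.

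Rpl39 (chrX:37082520-37085402, minus strand, GRCm38) encodes a very small protein that lines the exit tunnel of the 60S subunit, and Rpl39l (chr16:10170226-10174911, plus strand, GRCm38) encodes its paralogue. Both coding sequences are 156 bases long. They differ at 23 positions (85.3% identity), and the longest stretch without a difference is 38 bases. The coding sequences are shown because the results turn on this pair and its levels rest on telling the 2 genes apart; every base that differs is in capitals.
Rpl39: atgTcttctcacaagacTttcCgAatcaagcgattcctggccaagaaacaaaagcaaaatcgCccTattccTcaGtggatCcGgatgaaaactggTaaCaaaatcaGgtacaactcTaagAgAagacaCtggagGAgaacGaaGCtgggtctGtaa
Rpl39l: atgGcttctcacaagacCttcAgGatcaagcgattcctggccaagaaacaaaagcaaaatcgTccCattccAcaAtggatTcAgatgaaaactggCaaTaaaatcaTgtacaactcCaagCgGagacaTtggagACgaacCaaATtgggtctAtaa

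The promoters of 61 of the 81 genes were matched in RefSeq (GRCm38.p6), with 73 annotated starts. The pyrimidine hexamer CTTTCC was searched on the strand that reads like the mRNA, within 15 bases before and 15 bases after each start. A hit can lie before the annotated start, as for Rpl39l, so it is not by itself a TOP motif of the mRNA. Pyrimidine runs of other sequence were not searched. It was present for 10 of the 61 genes (16.4%), against 1.67% of 27025 genes of all kinds. The motif CCGGAAG, bound by ETS factors such as GABPA, was searched on both strands from 250 bases before to 50 bases after the start. It was present for 25 of the 61 genes (41.0%), against 9.93% of all genes. The 2 motifs were searched separately and can share letters. The windows around the starts of 4 genes that changed in Rbbp4 OE, described further on, are shown because each holds the hexamer, which is in capitals; these 4 were picked after their values were seen. Of the genes that changed in Rbbp4 OE, 7 were matched, and Rpl14, Rpl7a and Rps3 do not hold the hexamer. Rpl35a has 3 annotated starts, and the hexamer lies at 1 of them.
Rpl13a (chr7:45128731-45128760, minus strand): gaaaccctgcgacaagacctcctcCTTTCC
Rpl28 (chr7:4792950-4792979, plus strand): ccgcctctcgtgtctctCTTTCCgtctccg
Rpl35a (chr16:33056467-33056496, plus strand): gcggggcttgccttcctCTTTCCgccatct
Rpl39l (chr16:10170213-10170242, plus strand): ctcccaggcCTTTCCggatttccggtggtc
The same window of Rpl39 does not hold the hexamer.
Rpl39 (chrX:37085208-37085237, minus strand): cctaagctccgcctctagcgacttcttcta

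The 81 genes together took 21.1% and 19.3% of all TPM in the 2 control libraries, 20.6% and 20.97% with Rbbp4 OE, and 19.1% and 19.4% with Rbbp7 OE. The 2 Rbbp4 OE libraries lay between the controls, and the 2 Rbbp7 OE libraries lay just under and just over the lower control. The control libraries were farther apart than any 2 group means: the mean share was 20.2% ± 1.23 (SD, n = 2) in the controls, 20.8% ± 0.253 in Rbbp4 OE and 19.2% ± 0.227 in Rbbp7 OE. The summed level was 8.10% higher in Rbbp4 OE than in Rbbp7 OE, with no overlap of their libraries (two-sided exact permutation p = 0.333, the smallest that 2 libraries against 2 allow). Against control the summed level was 2.92% higher in Rbbp4 OE (exact permutation p = 1.0) and differed by -4.79% in Rbbp7 OE (exact permutation p = 0.667). Without control replicate 2 the difference of Rbbp4 OE from control turned from 0.04 to -0.02 on the log2 scale. TPM are shares of all RNA of a library, so fewer cells of a type and less RNA per cell cannot be told apart in them.

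**Figure D1:**
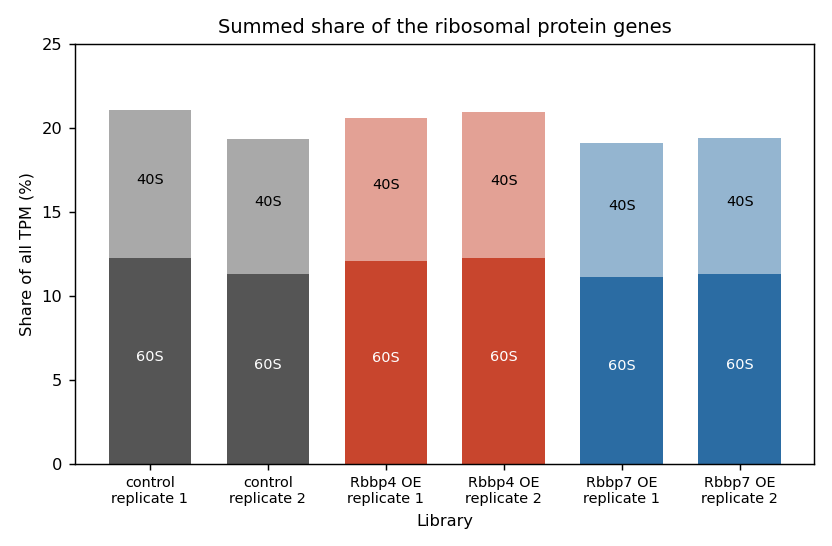
Bars give the share of all TPM (%) taken by the ribosomal protein genes in each of the 6 libraries, the 60S genes in full colour below and the 40S genes in pale colour above. The 2 control bars reach 21.1% and 19.3% and enclose both Rbbp4 OE bars, while the 2 Rbbp7 OE bars reach 19.1% and 19.4%.

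The 2 subunits gave similar values. The 49 genes of the 60S subunit took 12.3% and 11.3% of all TPM in the controls, 12.1% and 12.3% with Rbbp4 OE, and 11.1% and 11.3% with Rbbp7 OE. The 32 genes of the 40S subunit took 8.80% and 8.02% in the controls, 8.52% and 8.70% with Rbbp4 OE, and 7.96% and 8.08% with Rbbp7 OE. Rbbp4 OE was above Rbbp7 OE by 8.62% for the 60S genes and by 7.38% for the 40S genes, again without overlap (exact permutation p = 0.333 for each). The difference between the controls ran through nearly all of the genes: 75 of 81 were higher in control replicate 1 than in control replicate 2. The median absolute log2 difference between replicates over the 81 genes was 0.12 in the controls, 0.04 in Rbbp4 OE and 0.04 in Rbbp7 OE, and over all genes tested it was 0.18, 0.12 and 0.12.

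Levels of single genes spanned a wide range on the TPM scale, with a median of 2201 TPM over the 81 genes. Of these, 70 had a mean of at least 1000 TPM and 56 were among the 100 most abundant genes of the series. The order of the genes was almost the same in every library: the Spearman correlation of the 81 levels was between 0.986 and 0.999 over the 15 pairs of libraries, all aligned to 1 annotation. The most abundant was Rpl13a, a 60S protein, with 11653 and 11267 TPM in the controls, 12985 and 12704 TPM with Rbbp4 OE, and 11193 and 11704 TPM with Rbbp7 OE. It ranked 4 among all genes. Rplp1, a protein of the stalk that recruits translation factors, followed with a mean of 6635 TPM, then the 40S protein gene Rps2 with 6358 TPM. The 40S protein gene Rps24, with 5157 TPM, was also among the 5 most abundant. The lowest 5 were all 60S genes: Rpl3l with a mean of 1.06 TPM, Rpl39l with 207 TPM, Rpl29 with 402 TPM, Rpl10l with 496 TPM and Rpl39 with 706 TPM. The mean of Rpl13a was 57.4-fold that of Rpl39l.

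**Figure D2:**
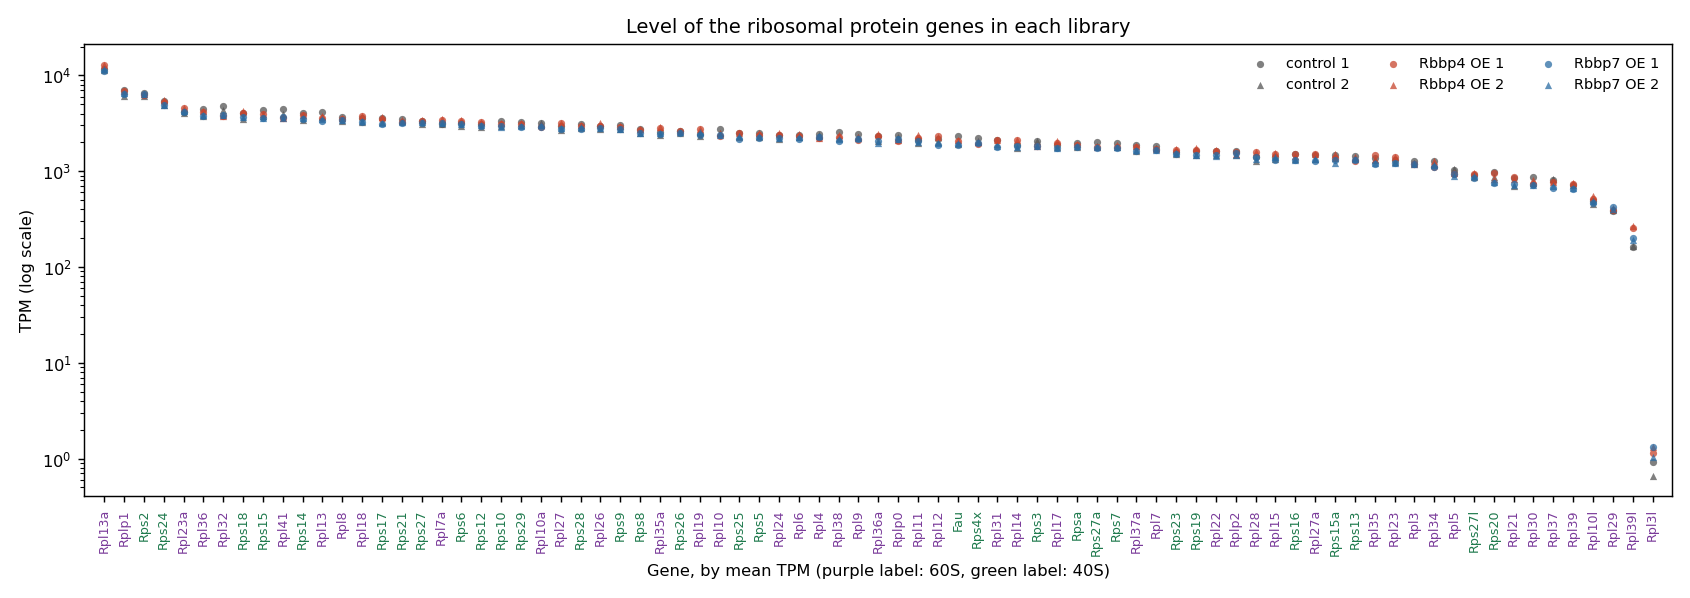
Each column is 1 of 79 ribosomal protein genes, ordered by mean TPM, and each point is 1 library (log scale; grey control, red Rbbp4 OE, blue Rbbp7 OE; circles replicate 1, triangles replicate 2). The 6 points of a gene nearly coincide; Rpl13a stands above the rest, Rpl3l lies near 1 TPM, and the Rbbp4 OE points of Rpl39l are visibly above its other points.

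In Rbbp4 OE against control, 8 of the 81 genes were higher and 2 were lower at a limma adjusted p under 0.05, with no minimum fold. Over all 14156 genes tested, 3.29% were higher and 8.07% were lower by the same rule, so the higher share was 9.88% of the ribosomal protein genes against 3.29%, and the lower share was 2.47% against 8.07%. None passed an adjusted p under 0.01 with a fold over 2, which 0.516% of all genes did. At an unadjusted p under 0.05, 28 of the 81 genes and 4187 of all 14156 genes differed. The libraries did not overlap for 33 genes that were higher (all genes, 20.8%) and for 13 that were lower (all genes, 37.1%). The median log2 fold change was 0.06 for the 81 genes and -0.08 for all genes tested. The median was 0.07 for the 60S and 0.03 for the 40S genes, and 7 of the 8 higher genes were 60S genes.

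These counts depended on the processing and on single libraries. With the library scaling set by the median of ratios, 5 genes were higher and none lower, and the median of all genes moved from -0.08 to 0.01. Over all 14156 genes, 716 were higher and 712 lower with this scaling. With TPM rescaled to protein-coding genes other than these, 9 were higher and none lower (all genes, 561 and 877). Over all genes tested, the log2 fold change correlated with transcript length (Spearman -0.238) and with GC content (Spearman 0.260), a description over genes of the same libraries, which are not independent replicates. Over the 81 genes alone the same correlations were 0.00814 with length and -0.0402 with GC content. The ribosomal protein mRNAs are short, with a median of 835 bases against 2618 bases for all genes tested. Their median GC content was 51.8% against 50.8%. A spline correction for GC content and length was fitted without the 81 genes. On the longest transcript 4 of them were then higher and 16 lower, with a median log2 fold change of -0.04. On the principal transcript 5 were higher and 23 lower, with a median of -0.07. Over all genes these counts were 411 and 1062 on the longest transcript and 413 and 1120 on the principal transcript, with a median of -0.07 on each. Without control replicate 1 the median log2 fold change of the 81 genes was 0.13, and without control replicate 2 it was -0.0122. Without Rbbp4 OE replicate 1 it was 0.0633, and without Rbbp4 OE replicate 2 it was 0.0434. The number of calls also changed in these fits, each of which leaves a group with 1 library. The sign of the median and the balance of higher and lower calls thus differed between settings. The log2 fold change of Rpl39l stayed between 0.63 and 0.78 in all of them, although its call did not hold in every one.

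Rpl39l had the largest fold change of the 81 genes. It was at 163 and 166 TPM in the controls, 258 and 267 TPM with Rbbp4 OE, and 199 and 192 TPM with Rbbp7 OE. All 3 groups were apart from each other, Rbbp4 OE highest and control lowest. Its level in Rbbp4 OE was 1.60-fold that of the control, a log2 fold change of 0.67 (SE 0.0496, 95% interval 0.55 to 0.79, limma adjusted p = 0.00412). The difference was past the threshold in 16 of 17 alternatives, between 0.63 and 0.78, the exception being the fit without Rbbp4 OE replicate 2 (limma adjusted p = 0.072). It stayed after the GC and length corrections, at 0.63 and 0.66 (limma adjusted p = 0.00521 and 0.00492). In Rbbp7 OE against control the log2 fold change was 0.25 (95% interval 0.13 to 0.37, limma adjusted p = 0.117). Rbbp4 OE was above Rbbp7 OE by 0.42 (SE 0.0496, 95% interval 0.30 to 0.55, limma adjusted p = 0.0466), and this call was kept in 5 of 17 alternatives.

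Further 60S genes rose in Rbbp4 OE, by 1.11 to 1.18-fold. Rpl13a, the most abundant, rose by 0.16 (limma adjusted p = 0.0421, SE 0.0365). Corrected for GC content and length on the longest transcript, its fold change was 0.05 on the log2 scale (limma adjusted p = 0.426). Rpl28 was at 1392 and 1289 TPM in the controls and at 1575 and 1578 TPM in Rbbp4 OE, a change of 0.24 in log2 units (limma adjusted p = 0.0327, SE 0.0473). Rpl14 went from 1870 and 1741 TPM to 2131 and 2113 TPM, a change of 0.23 in log2 units (limma adjusted p = 0.0276, SE 0.0437). Rpl35a went from 2565 and 2378 TPM to 2791 and 2875 TPM, a change of 0.20 in log2 units (limma adjusted p = 0.0486, SE 0.0469). In all 3 genes both Rbbp4 OE libraries were above both controls, and both Rbbp7 OE libraries lay among or close to the controls. Rpl23a, whose protein sits at the exit of the peptide tunnel, rose by 0.15 (limma adjusted p = 0.0395), and Rpl7a rose by 0.15 (limma adjusted p = 0.0345). After the GC and length corrections on the longest and the principal transcript, Rpl28 was called in both. Rpl14 was at 0.08 and 0.18 (limma adjusted p = 0.141 and 0.0164) and Rpl35a at 0.28 and 0.02 (limma adjusted p = 0.028 and 0.733), so each kept its call in 1 of the 2. Rpl23a was at -0.01 in both (limma adjusted p = 0.934 and 0.942), and Rpl7a at 0.08 and 0.06 (limma adjusted p = 0.248 and 0.373). Rpl13a was called in neither, with 0.08 on the principal transcript (limma adjusted p = 0.19). With median-of-ratios scaling Rpl28, Rpl14 and Rpl7a were called. Rpl13a, Rpl35a and Rpl23a were not (limma adjusted p = 0.0778, 0.0689 and 0.0656). Over the 17 alternatives the calls of these genes were kept in between 4 (Rpl13a) and 9 (Rpl28).

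Rpl32 and Rps3 fell in Rbbp4 OE. Rpl32, a 60S protein, was at 4745 and 4304 TPM in the controls, 3762 and 3753 TPM with Rbbp4 OE, and 3826 and 3877 TPM with Rbbp7 OE. With Rbbp4 OE it showed a change from control of -0.27 in log2 units (limma adjusted p = 0.0284, SE 0.0502). Rps3, a 40S protein at the entry of the mRNA channel, was at 2059 and 2074 TPM in the controls, 1839 and 1821 TPM with Rbbp4 OE, and 1816 and 1819 TPM with Rbbp7 OE, with a log2 fold change in Rbbp4 OE of -0.18 (limma adjusted p = 0.0267, SE 0.0323). Both genes were lower than control in all 4 overexpressing libraries, and in Rbbp7 OE the log2 fold changes were -0.23 (limma adjusted p = 0.137) and -0.19 (limma adjusted p = 0.0926). Neither was called with median-of-ratios scaling, at -0.16 and -0.07 (limma adjusted p = 0.288 and 0.455). After the GC and length corrections Rpl32 was called in both, at -0.36 and -0.47, and Rps3 in neither, at -0.11 and -0.12 (limma adjusted p = 0.0845 and 0.0502).

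**Figure D3:**
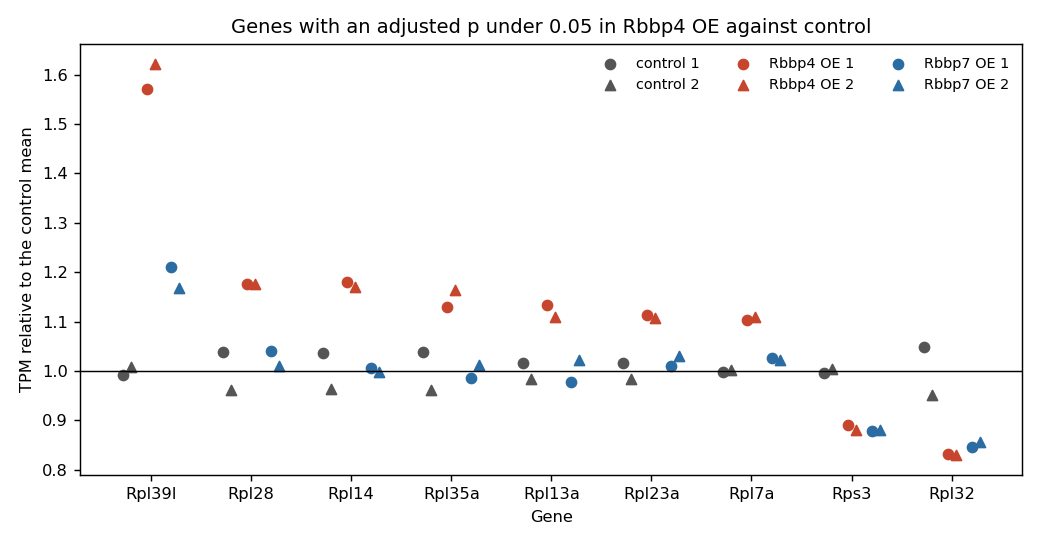
Points give the TPM of each library relative to the control mean (horizontal line at 1) for 9 genes with a limma adjusted p under 0.05 in Rbbp4 OE against control (grey control, red Rbbp4 OE, blue Rbbp7 OE; circles replicate 1, triangles replicate 2). The red points of Rpl39l lie near 1.60, those of the 6 other higher genes between 1.10 and 1.18, and for Rps3 and Rpl32 red and blue points lie together below the controls.

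In Rbbp7 OE against control, none of the 81 genes was called in limma. An unadjusted p under 0.05 was seen for 16 of them and for 2180 of all 14156 genes. Over all genes 0.198% were higher, 0.29% were lower, and 0.0353% passed the adjusted p under 0.01 with a fold over 2. The median log2 fold change was -0.08 for the 81 genes, for the 60S and for the 40S genes alike, and -0.0037 for all genes tested. The libraries did not overlap for 35 genes that were lower (43.2% of them, all genes 23.4%) and for 5 that were higher (6.17% of them, all genes 21.2%). Without control replicate 1 the median log2 fold change of the 81 genes was -0.00157. The lowest values, picked after they were seen, were those of Rps20, at 981 and 863 TPM in the controls and 748 and 778 TPM in Rbbp7 OE (log2 fold change -0.27, limma adjusted p = 0.219), and of Rpl37, at 810 and 821 TPM and then 672 and 693 TPM (log2 fold change -0.26, limma adjusted p = 0.0706). Corrected for GC content and length, 3 genes on the longest transcript and 2 on the principal transcript were lower and none was higher. Over all genes, 52 and 56 were lower and 30 and 34 were higher after these corrections.

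Between the 2 overexpressing groups, 64 of the 81 genes were higher in both Rbbp4 OE libraries than in both Rbbp7 OE libraries and 4 were lower. Over all genes tested these shares were 16.1% and 38.6%, against 79.0% and 4.94% of the ribosomal protein genes. The median log2 difference was 0.125 for the 81 genes and -0.08 for all genes, and 71 of 81 differences were positive. At an unadjusted p under 0.05 there were 39 of 81 genes and 2685 of 14156 genes. After adjustment 1 gene remained in limma, Rpl39l, against 0.177% of all genes higher, 0.127% lower and 0.0494% past the fold of 2. The genes next in size, picked after their values were seen, were Rpl36a, at 2336 and 2453 TPM with Rbbp4 OE, and 2051 and 1980 TPM with Rbbp7 OE (log2 difference 0.25, 95% interval 0.11 to 0.39, limma adjusted p = 0.131), and Rpl12, at 2317 and 2277 TPM against 1891 and 1989 TPM (log2 difference 0.24, 95% interval 0.12 to 0.37, limma adjusted p = 0.123). The median difference was 0.22 with median-of-ratios scaling, 0.05 after the GC and length correction on the longest transcript and 0.01 after that on the principal transcript. The comparisons share libraries, since each group enters 2 of them.

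**Figure D4:**
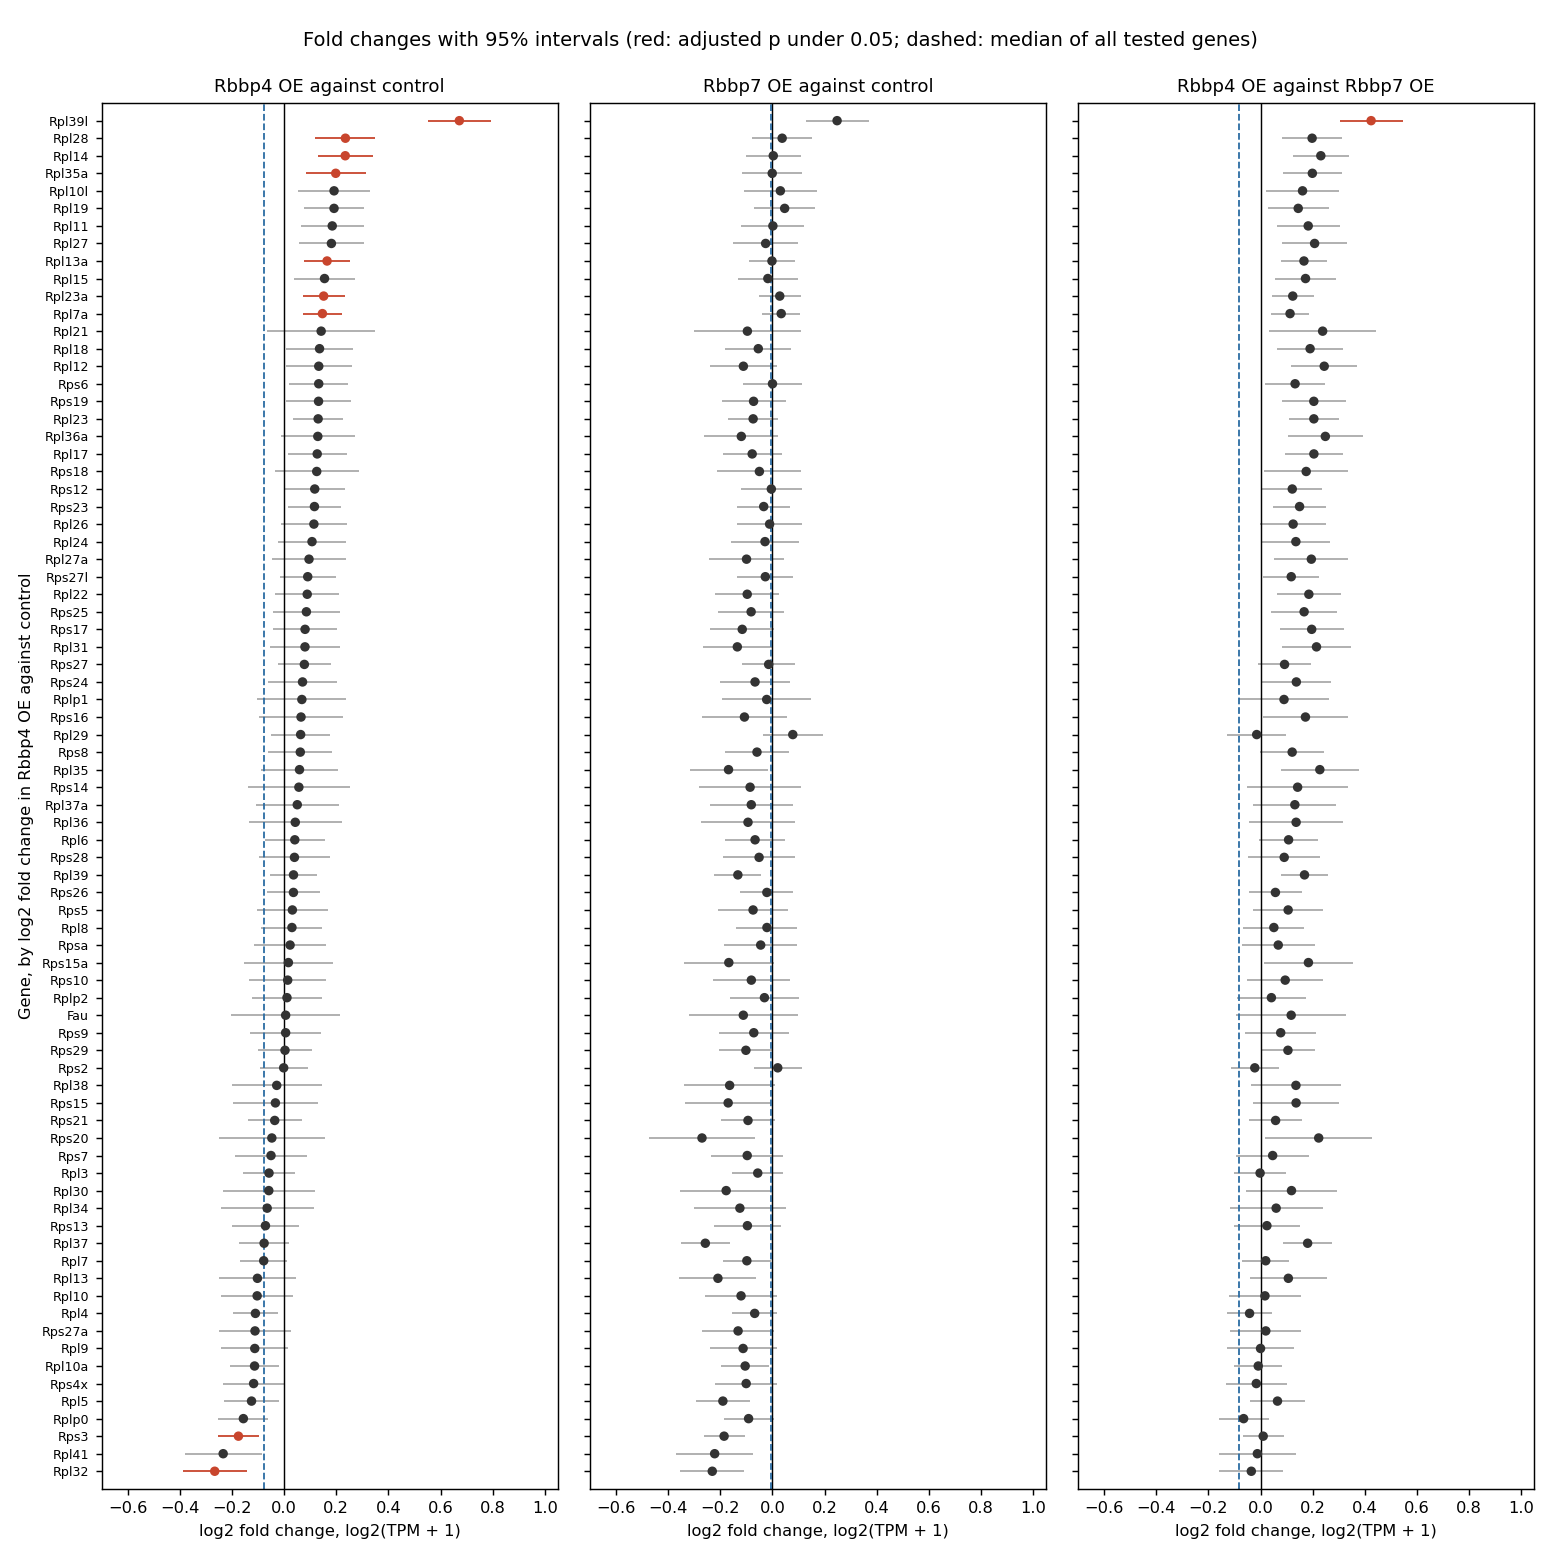
Points give the log2 fold change on log2(TPM + 1) of 78 ribosomal protein genes with 95% intervals from the limma fit, in the 3 comparisons, ordered by the first; Rpl3l, near 1 TPM, is left out. Genes with an adjusted p under 0.05 are red, 9 in the first panel, none in the middle and Rpl39l in the last; most points lie right of the dashed median of all tested genes in both outer panels and left of it in the middle one.

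Several genes with roles beyond the ribosome's core did not pass the test in the main fit. Rplp0, the base of the stalk, was at 2367 and 2260 TPM in the controls, 2047 and 2104 TPM with Rbbp4 OE, and 2191 and 2151 TPM with Rbbp7 OE. Its groups did not overlap in either comparison with control, and its log2 fold change was -0.16 in Rbbp4 OE (limma adjusted p = 0.056) and -0.09 in Rbbp7 OE (limma adjusted p = 0.343). The stalk proteins it carries were at 0.07 (Rplp1) and 0.01 (Rplp2) in Rbbp4 OE, with overlapping libraries. After the GC and length corrections on the longest and the principal transcript, Rplp0 was called lower, at -0.22 and -0.20 (limma adjusted p = 0.0181 and 0.0213), and so was Rplp1, at -0.32 and -0.30 (limma adjusted p = 0.0147 and 0.0156), while Rplp2 was not (limma adjusted p = 0.0583 and 0.0822). Rpl5 and Rpl11, which bind MDM2 together with 5S rRNA when ribosome assembly is disturbed, were at -0.13 and 0.18 in Rbbp4 OE (limma adjusted p = 0.113 and 0.0649). Rpl5 was at 1031 and 1047 TPM in the controls and 940 and 966 TPM in Rbbp4 OE, and Rpl11 at 2104 and 1952 TPM and then 2247 and 2361 TPM. Neither passed the threshold in the main fit. With the filter raised to a mean of 5 TPM, Rpl11 was called higher and Rplp0 was called lower. Summed with its copies, Rpl5 was at 0.02 (limma adjusted p = 0.826) and Rpl11 at 0.20 (limma adjusted p = 0.0519).

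Among the 40S genes, Rps6, whose protein is the classic substrate of the S6 kinases, was at 3217 and 2955 TPM in the controls, 3355 and 3406 TPM with Rbbp4 OE, and 3077 and 3092 TPM with Rbbp7 OE. Its log2 fold change was 0.13 in Rbbp4 OE (limma adjusted p = 0.121) and 0.00 in Rbbp7 OE. Rpsa, also known as the laminin receptor, was at 0.02 and -0.04. Rps4x, encoded on the X chromosome, was at -0.12 in Rbbp4 OE and -0.10 in Rbbp7 OE (limma adjusted p = 0.172 and 0.39). Fau and Rps27a, which are made as fusions with a ubiquitin-like protein and with ubiquitin, were at 0.01 and -0.11 in Rbbp4 OE (limma adjusted p = 0.975 and 0.247), and Fau was called lower after both corrections, at -0.30 and -0.28 (limma adjusted p = 0.0206 and 0.0219). Rpl41, a 60S gene that encodes the shortest ribosomal protein, was at 4502 and 3971 TPM in the controls. It was at 3589 and 3602 TPM with Rbbp4 OE, and 3667 and 3587 TPM with Rbbp7 OE. Its log2 fold change of -0.23 in Rbbp4 OE missed the threshold in the main fit (limma adjusted p = 0.0596). It passed after both corrections, at -0.47 and -0.51 (limma adjusted p = 0.00369 and 0.00308), and with the filter raised to a mean of 5 TPM. All 4 overexpressing libraries were below both controls.

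Paralogues differed in how their share of a pair varied. Rpl39l supplied 18.4% and 18.8% of the summed TPM of Rpl39 and Rpl39l in the controls, 26.0% and 26.4% with Rbbp4 OE, and 23.3% and 22.5% with Rbbp7 OE. Rpl39 itself was at 726 and 717 TPM in the controls, 734 and 745 TPM with Rbbp4 OE, and 656 and 660 TPM with Rbbp7 OE, with log2 fold changes of 0.04 (limma adjusted p = 0.569) and -0.13 (limma adjusted p = 0.20) against control. Rpl10l, a retrogene copy of the X-linked Rpl10, supplied 15.1% and 15.4% of its pair in the controls, 18.1% and 18.1% with Rbbp4 OE, and 16.4% and 17.0% with Rbbp7 OE. Rpl10l was at 485 and 455 TPM in the controls and 518 and 556 TPM in Rbbp4 OE (log2 fold change 0.19, limma adjusted p = 0.0815), and Rpl10 at 2729 and 2494 TPM and then 2340 and 2519 TPM (log2 fold change -0.10, limma adjusted p = 0.288). For both pairs the 3 groups did not overlap (exact permutation p = 0.333 for each comparison, the smallest possible).

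The pair Rps27 and Rps27l behaved differently on the same scale. Rps27l, whose gene is a p53 target, supplied 21.3% and 21.7% of the summed TPM in the controls, 21.5% and 21.8% with Rbbp4 OE, and 21.3% and 21.5% with Rbbp7 OE, and the group means differed by less than the spread between the controls. Rpl3l was at 0.93 and 0.66 TPM in the controls, 1.13 and 1.31 TPM with Rbbp4 OE, and 1.31 and 1.04 TPM with Rbbp7 OE, under 0.12% of its pair with Rpl3 in any library. Rpl22, which has a paralogue outside the rule, Rpl22l1, was at 1617 and 1487 TPM in the controls and 1627 and 1672 TPM in Rbbp4 OE (log2 fold change 0.09, limma adjusted p = 0.30). Rps4l, annotated as a transcribed pseudogene and so no member, was at 1176 and 1094 TPM in the controls, 1331 and 1352 TPM with Rbbp4 OE, and 1162 and 1247 TPM with Rbbp7 OE, a rise of 0.24 in Rbbp4 OE (limma adjusted p = 0.0428).

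**Figure D5:**
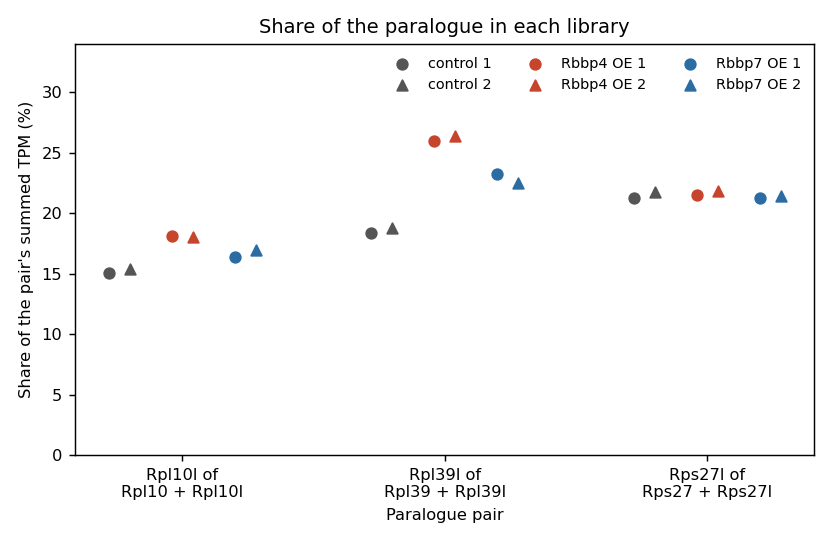
Points give the share (%) of the paralogue in the summed TPM of its pair for each library (grey control, red Rbbp4 OE, blue Rbbp7 OE; circles replicate 1, triangles replicate 2). For Rpl10l and Rpl39l the red points are highest, the blue intermediate and the grey lowest, from 18.4% to 26.4% for Rpl39l, while for Rps27l the 6 points lie between 21.3% and 21.8%.

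Near-identical gene copies limit what the level of a single gene means. Of the 81 genes, 75 had at least 1 of 574 annotated copies with at least 95% identity over at least 80% of the coding sequence. Rpl39l, Rpl3l, Rps3 and Rps27l had none. Summed over all copies, these took 1.89% and 1.70% of all TPM in the controls, 1.88% and 1.89% with Rbbp4 OE, and 1.76% and 1.81% with Rbbp7 OE. For Rpl29 the copies held 79.9% of the TPM of gene and copies together, for Rpl30 59.6%, for Rpl34 53.3%, for Rpl5 50.02% and for Rpl15 49.6%. Levels of these genes are therefore uncertain. Among the 10 genes that changed in Rbbp4 OE the share was at most 4.17%, that of Rpl7a.

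The copies also show how reads were assigned. Gm8210 and Gm13841, a pair of processed pseudogenes with 99.4% identity to Rpl29, were at identical levels in 4 libraries, 806 TPM each in control replicate 1 for example. In Rbbp4 OE replicate 1 they were at 244 and 1460 TPM, and in Rbbp4 OE replicate 2 at 1432 and 190 TPM. When each gene was summed with its copies, 8 genes were higher and 3 lower in Rbbp4 OE against control, including all 10 called without the copies. The added gene was Rpl41, at -0.28 (limma adjusted p = 0.0434), whose copy Gm10076, annotated as a long non-coding RNA, has the same coding sequence.

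Genes that act with the ribosome were described by lists in Rbbp4 OE against control, where 3.29% of all genes were higher and 8.07% lower. Of 40 translation factors, 1 was higher and 12 were lower, with a median log2 fold change of -0.16. Eif3h, a subunit of initiation factor 3, rose from 438 and 441 TPM to 499 and 508 TPM (log2 fold change 0.20, limma adjusted p = 0.0327). Etf1, the release factor that reads stop codons, fell from 148 and 164 TPM to 95.2 and 95.8 TPM (log2 fold change -0.70, limma adjusted p = 0.00635), and Eif4h, a helper of the initiation helicase, fell from 302 and 315 TPM to 214 and 208 TPM (log2 fold change -0.55, limma adjusted p = 0.00574). With median-of-ratios scaling 1 was higher and 5 were lower, and none was called when either of the Rbbp4 OE libraries was left out. None was higher and 4 were lower without control replicate 2, and none and 2 without either of the Rbbp7 OE libraries. Both Rbbp7 OE libraries were below both controls for Etf1, at 129 and 128 TPM.

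Of 53 ribosome assembly genes, 3 were higher and 14 were lower. Npm1, the abundant nucleolar chaperone nucleophosmin, rose from 4420 and 4645 TPM to 6040 and 6011 TPM (log2 fold change 0.41, limma adjusted p = 0.00574), and Mybbp1a, a nucleolar repressor, rose from 523 and 475 TPM to 740 and 702 TPM (log2 fold change 0.53, limma adjusted p = 0.00884). Ddx21, a nucleolar RNA helicase, fell from 120 and 142 TPM to 80.5 and 79.4 TPM (log2 fold change -0.70, limma adjusted p = 0.0106), and Nob1, the nuclease that finishes 18S rRNA, fell from 161 and 155 TPM to 110 and 106 TPM (log2 fold change -0.54, limma adjusted p = 0.00845). With median-of-ratios scaling 5 were higher and 4 lower, and the median turned from -0.09 to 0.01. Leaving out either of the Rbbp4 OE libraries left none called, either of the Rbbp7 OE libraries left 1 lower, and control replicate 2 left 2 higher and 5 lower.

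Of 20 other genes with TOP mRNAs, some of which are also in the list of translation factors, 4 were higher and 5 were lower, with a median of 0.04. Besides Npm1, Btf3, a subunit of the nascent polypeptide-associated complex, rose from 1424 and 1415 TPM to 1593 and 1673 TPM (log2 fold change 0.20, limma adjusted p = 0.0328). Nap1l1, a histone chaperone, fell from 555 and 591 TPM to 416 and 418 TPM (log2 fold change -0.46, limma adjusted p = 0.00797), and Eef2, the elongation factor that moves the ribosome along, fell from 2171 and 2246 TPM to 1849 and 1801 TPM (log2 fold change -0.27, limma adjusted p = 0.0148). The TOP genes thus held calls in both directions, and with median-of-ratios scaling 3 were higher and 1 was lower, while no call was left without any 1 of the 4 overexpressing libraries, and 1 in each direction without control replicate 2.

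Of all 14156 genes, 4187 had an unadjusted p under 0.05 in Rbbp4 OE against control. Of 17 regulators of ribosomal protein synthesis, such as Mtor, Larp1 and Myc, limma called none, and 5 had an unadjusted p under 0.05. Without control replicate 1, 3 of them were lower. The 6 listed ribosomal protein genes outside the rule had a median log2 fold change of 0.07. Of 78 genes of the mitochondrial ribosome, which makes the proteins encoded in mitochondrial DNA, 2 were higher, Mrpl54 (log2 fold change 0.45, limma adjusted p = 0.0126) and Mrpl48 (log2 fold change 0.42, limma adjusted p = 0.0452), and 5 were lower, Mrpl3 and Mrps27 with the largest decreases. None of the 78 was called without control replicate 2 or without any 1 of the 4 overexpressing libraries. Their summed share was 0.766% and 0.733% of all TPM in the controls, 0.757% and 0.758% with Rbbp4 OE, and 0.747% and 0.762% with Rbbp7 OE, so the groups overlapped.

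Of 294 ribosomal protein pseudogenes by name, 67 passed the filter on low values. In Rbbp4 OE against control 11 of these were higher and none lower (all genes, 3.29% and 8.07%). The filter used the mean over all libraries. Rps18-ps3, with a control mean of 0.285 TPM, passed it only through the overexpressing libraries. Most were low: Rps18-ps3 was listed at 0 and 0.57 TPM in the controls and at 2.87 and 2.22 TPM in Rbbp4 OE, and Rps19-ps3 at 0.54 and 1.08 TPM and then 4.31 and 3.03 TPM. After the GC and length correction on the longest transcript 3 were higher and 1 lower, and without either Rbbp7 OE library or without control replicate 2 none was called. Without Rbbp4 OE replicate 1 there were 2 higher, and without Rbbp4 OE replicate 2 there was 1. Their reads can be shared with the parent genes. In Rbbp7 OE against control none of the genes of these 7 lists was called in limma. Between 0 and 14 per list had an unadjusted p under 0.05, as did 2180 of all 14156 genes.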

How the data were processed

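Poly(A) RNA of 46C mESCs was sequenced in 6 libraries, 2 per group. Per the study's methods, the authors trimmed the reads (Trim Galore), aligned them to mm10 with a Gencode annotation (STAR) and estimated expression with RSEM. The deposited values used here are TPM as the authors made them. They keep no depth, so neither counts nor counting intervals were available. The errors given here rest only on the spread between few libraries, and how far depth limited the precision is unknown. RSEM divides reads among similar genes, which bears on genes with near-identical copies.

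Genes were annotated by identifier from GENCODE M21 (GRCm38), which matched 55141 of 55401 listed gene identifiers, 54349 of them with the same version. The members, gene lists and tests were chosen with earlier results of these data known. The named genes were, by a written rule, those of known special role, the paralogue pairs, the 5 highest and 5 lowest members, the called members and the 2 largest called increases and decreases per list. Some genes that met this rule are not reported here. Markers of 2-cell-like cells were added after the data were seen.

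All 14156 genes with a mean of at least 0.5 TPM were fitted in limma 3.58.1 (R 4.3.3) on log2(TPM + 1), a scale that understates changes of low genes, with the 3 groups in 1 fit (trend; 3 residual degrees of freedom) and Benjamini-Hochberg adjustment over all genes. This took the place of the count model of the study, since TPM are not counts. Calls needed an adjusted p under 0.05, and a second rule an adjusted p under 0.01 with a fold over 2. Summed levels were compared by two-sided exact permutation tests over libraries. Copies were found with blastn 2.17.0 among annotated transcripts. The fit was tested on simulated data. As alternatives, the pseudocount was set to 0.1 or 5, the filter was dropped or raised to a mean of 5 TPM, and the libraries were scaled in 2 other ways. Further alternatives were a replicate block, 2-group fits and leaving out each library. A spline correction for GC content and length used the longest transcript. Corrections on the principal transcript and sums with copies were chosen after seeing the data.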

Additional observations from a re-analysis of the deposited data

Results flagged for a closer look

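Rpl39l stood out because its level differed between the 2 overexpressing groups by a direct test. It was at 258 and 267 TPM in Rbbp4 OE and at 199 and 192 TPM in Rbbp7 OE, a log2 difference of 0.42 (limma adjusted p = 0.0466), against 163 and 166 TPM in the controls. It was higher in Rbbp4 OE in every alternative, by 0.35 to 0.52, with adjusted p between 0.0283 and 0.343. No other ribosomal protein gene passed this test, and no group had enough libraries to be tested for a library far from the others.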

How the results depend on the processing

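In Rbbp4 OE against control, 10 ribosomal protein genes were called, 8 higher and 2 lower. The count was 12 with a pseudocount of 0.1, 7 with a pseudocount of 5, 15 with a mean of at least 5 TPM, 9 with rescaling to other protein-coding genes and 11 with copies summed. It was 1 with no filter, 5 with median-of-ratios scaling, 20 and 28 after the GC and length corrections on the longest and the principal transcript, 1 in the 2-group fit and 0 to 19 when single libraries were left out. The median log2 fold change, 0.06, was 0.16 with median-of-ratios scaling, -0.0429 and -0.0735 after the 2 corrections, and -0.0122 to 0.13 with a library left out. The summed level, 0.04 on the log2 scale, was -0.0195 to 0.105 with a library left out, the lowest without control replicate 2.

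In Rbbp7 OE against control the count of 0 became 1 (Rpl37) with a mean of at least 5 TPM and 3 and 2 after the 2 corrections, and the median of -0.08 ranged from -0.13 to -0.00157 with a library left out. In Rbbp4 OE against Rbbp7 OE the count of 1 became 0 in the 2-group fit, after both corrections, without a filter, when the pseudocount was 5 and without any 1 library. The median of 0.125 was 0.22 with median-of-ratios scaling and 0.046 and 0.00715 after the 2 corrections. No ribosomal protein gene passed the fold of 2 in any fit.

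Replicate numbers did not pair the samples: deviations of same-numbered libraries correlated at -0.03, 0.03 and -0.03 over genes. With the replicate block the counts were 2 (Rpl39l among them), 0 and 0 in the 3 comparisons.

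After the GC and length correction on the longest and the principal transcript, the fold changes in Rbbp4 OE turned to -0.32 and -0.30 for Rplp1, -0.30 and -0.28 for Fau and -0.00695 and -0.0062 for Rpl23a, and on the longest transcript to -0.19 for Rps27. All of these were called lower except Rpl23a (limma adjusted p = 0.934 and 0.942); the causes were not tested. Among the other values of single genes, 2296 kept their direction and their side of the threshold, 187 lost the threshold, 21 gained it, and 135 moved or changed sign without being called.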
